A study of Mus musculus with 26 samples.

Results

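Schwann cells of the mouse choroid formed clusters 12 and 13 of the authors' 13 clusters in the scRNAseq of RPE/choroid, the retinal pigment epithelium together with the vascular layer under it. All cells that the deposited annotation put in those clusters were taken, 292 of 7565 cells in the 2 libraries. One library came from B6129PF1/J mice (138 Schwann cells of 3637 cells) and the other from C57BL/6J mice (154 of 3928), both at 3 months of age and, by the labels, without a treatment or an altered gene named. For each strain an eye of a male and an eye of a female were pooled before digestion, and nucleated, living cells were sorted (Hoechst positive, TO-PRO-3 negative) and loaded for droplet sequencing from the 3′ end of transcripts. Each strain is thus a single library, so that strain and library cannot be told apart, and no test between groups was possible. Average values of whole RPE/choroid from mice with Ihh deleted in endothelial cells and from their controls were read as well. Both groups were 6 months old and 12 weeks past tamoxifen.

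Schwann cells are the glia of peripheral nerves. Myelinating Schwann cells wrap a single large axon in a sheath that holds PMP22 and MBP, whereas nonmyelinating (Remak) Schwann cells ensheath several thin axons without making myelin and keep surface molecules such as NGFR, L1CAM and NCAM1. Both arise from the neural crest, as do melanocytes, and both depend on the transcription factor SOX10. In the choroid they accompany the ciliary and autonomic nerves that run to the vessels.

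Cluster 12 held 108 cells in each library. Cluster 13 held 30 cells of the B6129PF1/J library (0.825% of its cells, exact 95% interval 0.557 to 1.18) and 46 of the C57BL/6J library (1.17%, 0.859 to 1.56). The counts are unique molecular identifiers (UMIs), each standing for 1 captured transcript. The median cell held 2517 and 2299 UMIs in cluster 12 and 2848 and 2161.5 in cluster 13 (B6129PF1/J and C57BL/6J, the order kept below), against 3881 and 3174.5 over all cells of the libraries. Levels are given as UMIs per 10,000 UMIs of a cluster in 1 library, with exact Poisson 95% intervals, and these intervals, like those of shares and ratios, cover counting error only. The clusters were drawn from the same counts, so differences between clusters are a description.

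The label was read beside Mbp, Mag and Sox10, which is no independent check, since the clusters were drawn from the same counts. Mbp, which encodes myelin basic protein, was at 18.1 (16.6 to 19.7) and 17.4 (15.9 to 19.0) UMIs per 10,000 in cluster 12 and at 154 (146 to 161) and 152 (146 to 160) in cluster 13, against 0.788 and 0.363 in the highest of clusters 1 to 11. Mag, a myelin-associated glycoprotein of the inner face of the sheath, was at 0.0981 and 0.220 in cluster 12 and at 4.56 (3.37 to 6.03) and 3.34 (2.38 to 4.55) in cluster 13. Sox10 was at 2.97 (2.39 to 3.65) and 2.24 (1.71 to 2.87) in cluster 12 and at 2.61 (1.73 to 3.77) and 1.42 (0.827 to 2.27) in cluster 13. Sox10 was also present in the melanocyte cluster 10, at 2.03 and 1.93, so that Sox10 alone did not set Schwann cells apart from melanocytes. Mag marked cluster 13 only in part, being seen in 23 of 30 and 22 of 46 of its cells, and was near 0 in cluster 12. No RPE cell held a Mag UMI in either library, at a median depth of 5263 and 3406.5 UMIs. Sox10 UMIs were found in 25.1% and 19.3% of RPE cells, against 54.6% and 43.5% of cluster 12 cells, whose median depths were 2517 and 2299. Clusters 12 and 13 held 42.7% and 40.4% of all Sox10 UMIs of the libraries.

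A gene was listed as shared when it was at least 5 times as high in cluster 12 and in cluster 13 as in every other cluster, in both libraries, with at least 10 UMIs in the Schwann cells of each. 10 of 4768 genes met this, 0.21%. Among them were Kcna1, Cnp, Mbp, Gpm6b, Egfl8, Gpr37l1, Gatm, Slc44a1 and Cadm4. A level under 3 UMIs in another cluster was set to 3 UMIs for this rule, which makes it strict where the other cluster is small.

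Kcna1, a voltage-gated potassium channel subunit, led the list and was nearly as high in one cluster as in the other. It was at 40.4 (38.2 to 42.7) and 35.5 (33.3 to 37.9) UMIs per 10,000 in cluster 12 and at 38.4 (34.8 to 42.3) and 38.3 (34.9 to 42.0) in cluster 13. The highest other cluster, the hematopoietic cluster 11, was at 0.0365 and 0.264. Cluster 12 held 1.78% and 1.79% of the UMIs of the libraries and cluster 13 held 0.626% and 0.787%, but together they held 98.9% (98.2 to 99.3) and 96.8% (95.8 to 97.6) of all Kcna1 UMIs. Kcna1 UMIs were seen in 108 of 108 and 106 of 108 cells of cluster 12 and in every cell of cluster 13, and in no RPE cell.

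Several of the other shared genes were uneven between the clusters. Cnp, a myelin enzyme, was at 17.2 and 17.4 in cluster 12 and at 36.8 and 28.8 in cluster 13, a ratio of 2.14 (1.87 to 2.44) and 1.66 (1.44 to 1.91). Gatm, which makes the precursor of creatine, was at 8.01 and 13.4 in cluster 12 and at 42.5 and 44.3 in cluster 13. Gpm6b, a membrane glycoprotein of glia and neurons, went the other way, from 25.2 and 24.1 in cluster 12 to 14 and 15.5 in cluster 13. Egfl8, a secreted protein with EGF-like domains, was at 13.5 and 12.8 in cluster 12 and at 7.63 and 10.7 in cluster 13, and in the C57BL/6J library the interval of its ratio of cluster 12 to 13 (0.979 to 1.48) held 1. Gpr37l1, a receptor of glia, was the most uneven of those higher in cluster 12, at 8.63 and 7.19 against 2.05 and 2.25. The remaining pair, the choline transporter Slc44a1 and the adhesion molecule Cadm4, lay between 1.59 and 5.02 in both clusters and both libraries.

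**Figure D1:**
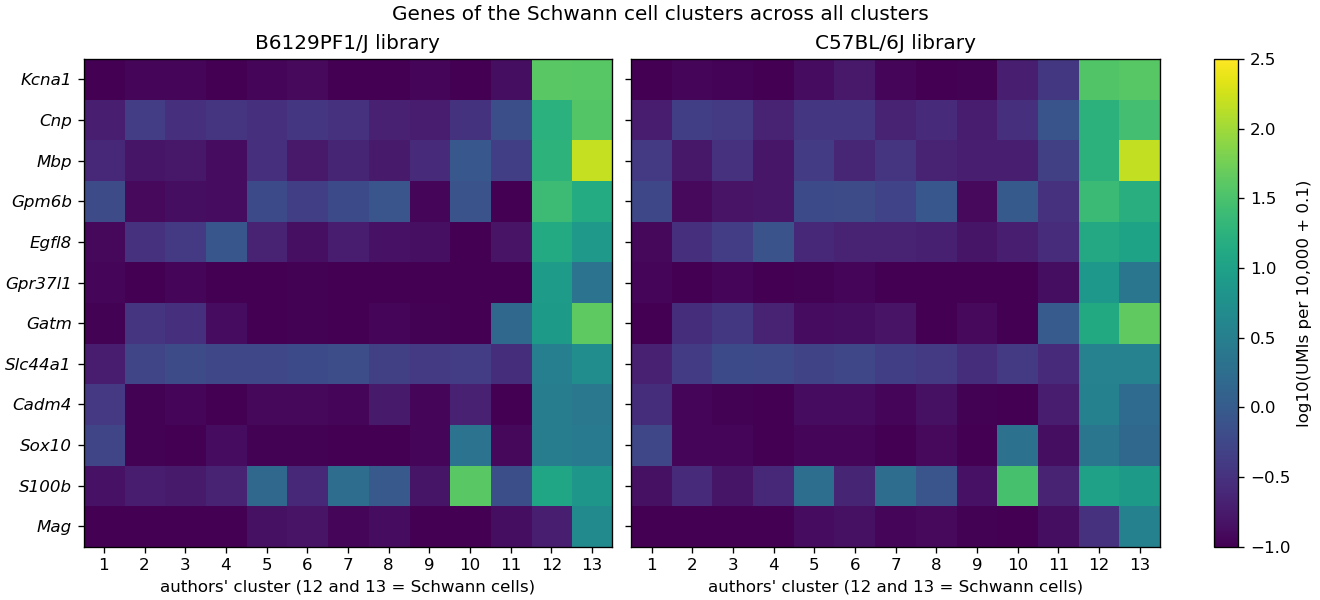
Levels of shared genes and of Sox10, S100b and Mag in the 13 clusters (columns) of each library, as log10 of UMIs per 10,000 plus 0.1. The shared genes are brightest in columns 12 and 13, whereas Sox10 and S100b are also bright in column 10, the melanocytes, and Mag is bright in column 13 only.

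S100b, a calcium-binding protein often used to mark Schwann cells, missed the rule and was higher in melanocytes (40.2 and 30.2) than in cluster 12 (11.6 and 9.98) or cluster 13 (6.98 and 8.01). 4 of 4768 genes, 0.0839%, were at least 5 times as high in clusters 10, 12 and 13 as in all the rest, in both libraries, among them Cmtm5 and Fxyd3. With cluster 10 left out of the comparison, an alternative added after the data were seen, 24 genes were listed as shared, among them Pou3f1, Sox2, Gjc3 and Gal3st1. Of these, Gjc3 had 2 and 7 UMIs in cluster 10, whereas Pou3f1, Sox2 and Gal3st1 had none there and had missed the rule through the floor of 3 UMIs in a cluster of 16 and 26 cells. Sox2, a factor of immature glia, had 33 and 40 UMIs in all, every one of them in clusters 12 and 13. Foxd3, a neural crest factor, had 63 of 63 and 35 of 36 of its UMIs there.

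The clusters parted over myelin. Here a gene was listed when it was at least 3 times as high in one cluster as in the other in both libraries, with at least 10 UMIs in the higher cluster of each library. 115 of the 1479 genes with enough UMIs in cluster 13 were listed as higher in cluster 13, 7.78%, and 176 of the 3799 with enough in cluster 12 were listed as higher in cluster 12, 4.63%. Across the 4768 genes with at least 10 UMIs in the Schwann cells of each library, the median log2 ratio of cluster 13 to 12 was -0.19 and -0.22, and list medians are read beside it.

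Of the 25 genes of the myelin list, 23 had a row and 20 reached 10 UMIs, and 18 were listed as higher in cluster 13 and 0 as higher in cluster 12. Their median log2 ratio of cluster 13 to 12 was 4.48 and 4.52. Pmp22, a membrane protein of compact myelin, was at 11.2 and 9.87 against 169 and 143. Ncmap, found in noncompact myelin, had 0 and 6 UMIs in cluster 12, the 6 of them in 1 cell, and 284 and 296 in cluster 13, in 30 of 30 and 44 of 46 cells. It was thus at least 270-fold higher in the B6129PF1/J library, against a floor of 3 UMIs, and 112 times as high (51.0 to 308) in the C57BL/6J library.

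The genes of the wider sheath followed. Gjb1, the gap junction protein through which the layers of the sheath communicate, had 0 and 2 UMIs in cluster 12 and 14 and 26 in cluster 13. Fa2h and Ugt8a, enzymes of the galactolipids of myelin, had 28 and 27 and 24 and 43 UMIs in cluster 13, with at most 1 in cluster 12. Mal, a membrane raft protein, was the least uneven of the 18, at 6.24 and 5.10 against 20.9 and 18.5. Prx, the periaxin that links the sheath to the basal lamina, had 53 and 55 UMIs in cluster 13 and 3 and 1 in cluster 12. Cldn19, a claudin of the tight junctions within the sheath, had 105 and 104 against 2 and 4. Pllp, plasmolipin, was at 23.4 and 21.4 against 0.588 and 0.807, and Fxyd3, a regulator of the sodium pump, at 10.3 and 18.0 against 0.490 and 0.550. The exceptions of the list were Cnp, at a ratio under 3, and Gal3st1, which makes the lipid sulfatide and had 8 and 7 UMIs in cluster 13 and 20 and 19 in cluster 12, levels that lay close together.

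Genes outside the myelin list also led the ranking of cluster 13. Fxyd6, another regulator of the sodium pump, had 246 and 218 UMIs in cluster 13 and 4 and 4 in cluster 12, ratios of 175 (67.5 to 648) and 124 (47.7 to 459), and was at 10.9 and 7.52 UMIs per 10,000 in melanocytes. Mt3, a metal-binding metallothionein, had 287 and 284 UMIs against 1 and 9, although RPE cells held it at a similar level (27.6 and 30.1 UMIs per 10,000). Kcnk1, a potassium leak channel subunit, had 56 and 41 UMIs in cluster 13 and 0 in cluster 12 of either library, at least 53.1-fold and 31.1-fold higher. Slc36a2, an amino acid transporter, had 66 and 64 against 0 and 1, and Fam178b, Sncg, Emid1 and Ogn were at 4.34 to 11.4 UMIs per 10,000 in cluster 13 and 0 to 0.257 in cluster 12. Dusp15 and Gldn, which are on the myelin list and of which the latter encodes a ligand that gathers sodium channels at nodes, were also among the leading genes, at 3.26 to 5.09 in cluster 13.

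**Figure D2:**
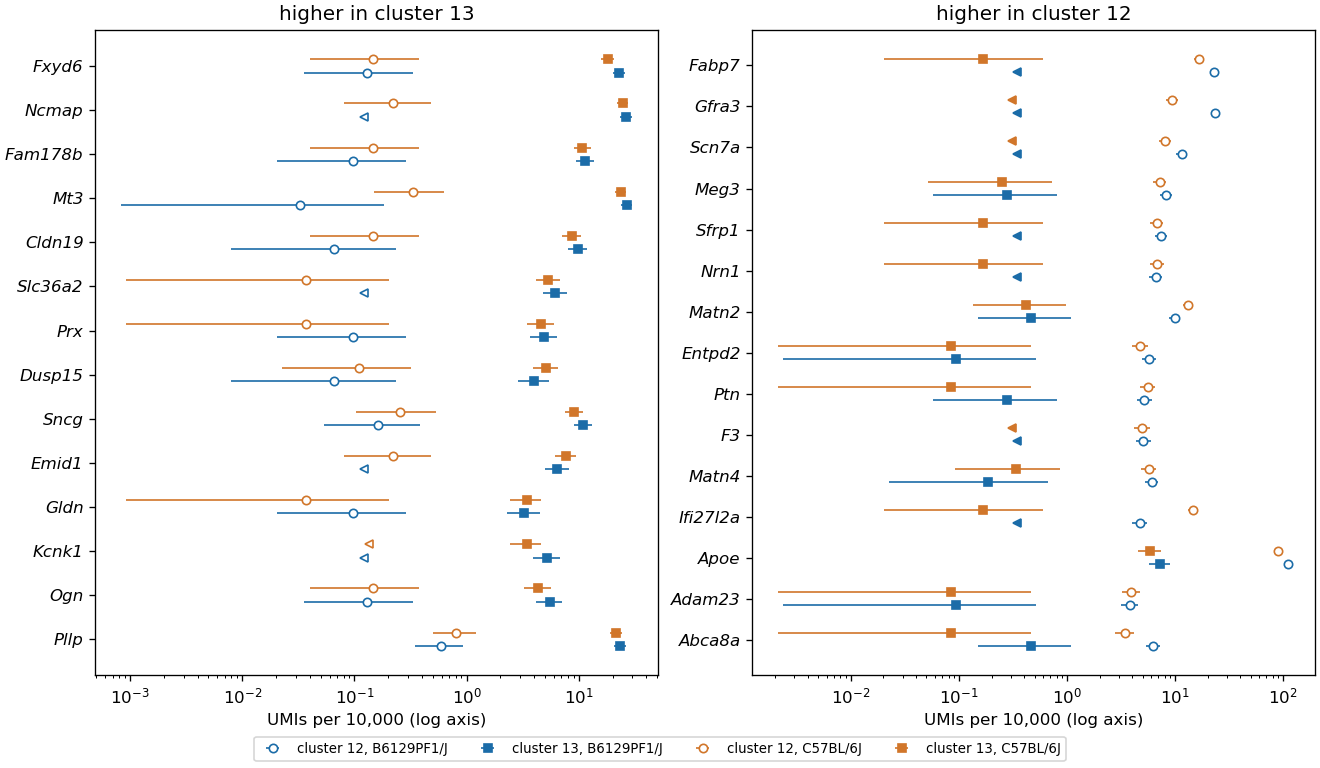
Levels (UMIs per 10,000, log axis) of leading genes higher in cluster 13 (left) and in cluster 12 (right); circles are cluster 12, squares cluster 13, colours the 2 libraries, and bars exact Poisson 95% intervals. Left-pointing triangles mark the upper limit where no UMI was counted. The rows were chosen for the same direction in both libraries, so the libraries fall on the same side of the gap by construction.

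Of the 14 factors that act on myelination, 9 reached 10 UMIs, and Egr2 and Pou3f1 were listed as higher in cluster 13 and none as higher in cluster 12. EGR2 switches on myelin genes, and POU3F1 acts just before it. Pou3f1 was at 11.2 (9.26 to 13.4) and 11.9 (10.1 to 14.1) in cluster 13 and at 1.24 and 2.09 in cluster 12. Egr2 was at 3.35 (2.35 to 4.64) and 5.09 (3.89 to 6.54) against 0.981 and 0.734, and it was also at 0.917 and 0.879 in cluster 8. Zeb2, a repressor needed for Schwann cell maturation, lay the other way without meeting the rule in both libraries, at 8.07 and 6.82 in cluster 12 and 2.98 and 1.25 in cluster 13. Of the 14 genes with a row on the list of negative regulators of myelination and repair genes, 7 reached 10 UMIs and none was listed in either direction, among them Jun, at 30.0 and 29.4 in cluster 12 and at 22.1 and 14.8 in cluster 13. Of 26 genes of cholesterol and lipid synthesis, 13 reached 10 UMIs. Hmgcs1, Msmo1 and Elovl1 were listed as higher in cluster 13, with Hmgcs1 at 3.82 and 3.84 against 0.784 and 0.624. Srebf1, a regulator of lipid synthesis, was listed as higher in cluster 12. Beside these stand 115 and 176 of the 4768 genes that reached 10 UMIs in clusters 12 and 13 together, as list members did. The shares of 7.78% and 4.63% have another base, genes with 10 UMIs in the higher cluster alone. The median log2 ratio of the lipid synthesis list was 1.22 in both libraries.

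Promoters of genes on either side of this divide are shown because these factors bind DNA in or near myelin genes. The stretches run from 250 bases before to 50 after a transcript start in RefSeq, build GRCm38.p6. Capitals mark matches, on either strand, to 4 short motifs: ACAAAG and ACAATG for SOX factors, GCGTGGG for EGR factors and ATGCAAAT for POU factors. Mag, Prx and Ncmap were higher in cluster 13 and Scn7a in cluster 12, and the stretches were chosen because they hold a match.
Mag, chr7:30914814-30915113, minus strand: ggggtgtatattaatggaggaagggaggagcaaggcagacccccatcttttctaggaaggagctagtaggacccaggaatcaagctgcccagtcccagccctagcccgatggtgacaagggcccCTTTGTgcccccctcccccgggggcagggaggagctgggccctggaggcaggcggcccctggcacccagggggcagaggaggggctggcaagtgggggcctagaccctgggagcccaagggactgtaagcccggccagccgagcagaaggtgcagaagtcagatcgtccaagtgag
Prx, chr7:27499074-27499373, plus strand: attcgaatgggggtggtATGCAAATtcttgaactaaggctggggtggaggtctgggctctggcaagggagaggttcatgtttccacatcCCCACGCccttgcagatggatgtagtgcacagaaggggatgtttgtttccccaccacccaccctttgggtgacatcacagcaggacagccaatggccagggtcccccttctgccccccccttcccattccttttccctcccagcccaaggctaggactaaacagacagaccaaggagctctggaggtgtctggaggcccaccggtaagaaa
Ncmap, chr4:135385623-135385922, minus strand: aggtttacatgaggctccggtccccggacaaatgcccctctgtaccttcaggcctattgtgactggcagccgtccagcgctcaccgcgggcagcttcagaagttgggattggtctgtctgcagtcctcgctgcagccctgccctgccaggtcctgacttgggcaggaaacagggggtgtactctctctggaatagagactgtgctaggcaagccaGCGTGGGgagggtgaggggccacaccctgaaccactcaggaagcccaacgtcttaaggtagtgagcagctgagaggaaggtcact
Scn7a, chr2:66784861-66785160, minus strand: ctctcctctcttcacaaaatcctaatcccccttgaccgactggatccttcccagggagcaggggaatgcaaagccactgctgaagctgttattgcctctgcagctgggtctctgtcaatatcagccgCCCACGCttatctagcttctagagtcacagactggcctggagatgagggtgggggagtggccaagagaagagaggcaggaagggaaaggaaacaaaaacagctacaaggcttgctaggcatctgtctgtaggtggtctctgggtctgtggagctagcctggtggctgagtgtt
RefSeq gives further starts for Mag and Ncmap, and 1 of the 3 Mag stretches and 1 of the 2 Ncmap stretches, the latter at the annotated start of the gene, held none of the 4 motifs. The Mag stretch shown held ACAAAG on the opposite strand, the Prx stretch an EGR and a POU match, and the Ncmap and Scn7a stretches shown an EGR match each. The POU motif lay in 7 of 134 promoters of the genes higher in cluster 13 (5.22%, 86 of 115 genes matched), in 3 of 172 of those higher in cluster 12 (1.74%, 134 of 176 genes) and in 1.74% of all 32851 promoters, which belong to 27025 genes. Each transcript start counts as a promoter, so windows of 1 gene can overlap and count the same match more than once. These shares are thus not shares of genes, and the sets differ in starts per gene. The EGR motif lay in 7.46%, 5.81% and 5.04% of the same sets. One or the other SOX motif lay in 15.7% of the promoters of genes higher in cluster 13, 21.5% of those higher in cluster 12 and 28.6% of all promoters. A match of letters is a description of these windows and no binding site.

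Cluster 12 carried the surface molecules of nonmyelinating Schwann cells. Of the 16 genes on that list, 10 were listed as higher in cluster 12 and 0 as higher in cluster 13, with a median log2 ratio of cluster 13 to 12 of -2.61 and -2.44 over the 13 that reached 10 UMIs. Of all 4768 genes that reached 10 UMIs by the same count, 176 were listed as higher in cluster 12. Gfap, Gap43, Apod, Sostdc1, Itga1 and Cxcl14 were the members not listed in either direction. Scn7a, a sodium channel subunit of these cells, had 351 and 221 UMIs in cluster 12 and none in cluster 13, at least 41.1-fold and 32.4-fold higher. Ncam1, the neural cell adhesion molecule, had 106 and 88 UMIs against 1 and 1, and was as high in melanocytes (3.04 and 4.05 UMIs per 10,000) as in cluster 12 (3.46 and 3.23). Chl1, a relative of L1CAM, had 100 and 53 against 0 and 0. L1cam, an adhesion molecule between glia and axon, had 53 and 43 UMIs against 0 and 0, and Ngfr, the low-affinity neurotrophin receptor, 50 and 34 against 1 and 0. Matn2, a matrix protein, was at 9.90 and 13.1 against 0.465 and 0.417. Gfap, an intermediate filament often used to mark these cells, had only 23 and 9 UMIs in cluster 12, and none in cluster 13.

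The genes that led the ranking of cluster 12 were Fabp7 and Gfra3. Fabp7, a fatty acid binding protein of glial precursors, was at 22.7 (21.0 to 24.4) and 16.5 (15.1 to 18.1) in cluster 12, with 0 and 2 UMIs in cluster 13. Gfra3, a receptor for artemin, was at 23.2 (21.5 to 24.9) and 9.43 (8.31 to 10.7) with no UMI in cluster 13, at least 83.0-fold and 37.7-fold higher. Clusters 12 and 13 held 98.1% and 96.6% of all Gfra3 UMIs of the libraries, and no cluster of 1 to 11 was above 0.0209 UMIs per 10,000. Cdh19, a cadherin of the Schwann cell lineage, had 153 and 103 UMIs against 4 and 1, and Cadm1, an adhesion molecule, was at 10.8 and 11 against 0.837 and 1.17.

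Apoe, a carrier of lipids, was the most abundant of the leading genes, at 111 (107 to 114) and 88.9 (85.4 to 92.5) in cluster 12 and at 7.26 and 5.84 in cluster 13, a ratio of 15.2 in each library. RPE cells held Apoe at 116 and 157, so that it set cluster 12 apart from cluster 13 but not from RPE cells. Ptn, the growth factor pleiotrophin, had 159 and 152 UMIs against 3 and 1, and Sfrp1, an inhibitor of WNT signals, 228 and 184 against 0 and 2. Nrn1, neuritin, had 203 and 185 against 0 and 2, and F3, tissue factor, 156 and 135 against none. The noncoding RNA Meg3 and the genes Entpd2, Matn4, Adam23 and Abca8a were at 3.41 to 8.27 UMIs per 10,000 in cluster 12 and at 0.0835 to 0.465 in cluster 13. Ifi27l2a, induced by interferon, had 144 and 401 UMIs in cluster 12 and 0 and 2 in cluster 13.

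Signals that pass between axon and glia differed as well. Of 14 genes of ErbB and axonal signal reception, 7 reached 10 UMIs, and Ntrk3, Ngfr, Lgi4 and Ptprz1 were listed as higher in cluster 12 and none as higher in cluster 13. Erbb3, the receptor through which neuregulin acts on Schwann cells, had 40 and 49 UMIs in cluster 12 and 9 and 4 in cluster 13, a ratio of cluster 12 to 13 of 1.56 (0.746 to 3.66) and 5.38 (1.97 to 20.5), and was not listed. Among neurotrophic factors Fgf1 (17 and 11 UMIs against 1 and 0) was listed as higher in cluster 13, and Ptn as higher in cluster 12. Nfasc, the neurofascin of the junction between sheath and axon, had 9 and 7 UMIs in cluster 13 and none in cluster 12. Of the 17 genes of axon-glia adhesion, 12 reached 10 UMIs. Of these, 6 were listed as higher in cluster 12 and 2, Gldn and Epb41l2, as higher in cluster 13. Of the 4768 genes that reached 10 UMIs by the same count, 176 and 115 were listed. The shares of 4.63% and 7.78% are over genes with 10 UMIs in the higher cluster alone.

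Of 24 genes of the basal lamina and its receptors, 19 reached 10 UMIs in the Schwann cells and 1 was listed, a share close to that over all genes. It was Col5a3, a collagen chain of peripheral nerve, with 35 and 26 UMIs in cluster 12 and 3 and 0 in cluster 13. The median log2 ratio of cluster 13 to 12 over the list was -0.42 and -0.52. Dag1, the dystroglycan that binds laminin, was at 1.44 and 1.91 against 2.70 and 3.76. Of 16 ion channels and transporters, 10 reached 10 UMIs, with Kcnk1 and Aqp1 listed as higher in cluster 13. Scn7a and Atp1b2, a sodium pump subunit with 69 and 49 UMIs against 4 and 5, were listed as higher in cluster 12. Of the 4768 genes that reached 10 UMIs by the same count, 115 were listed as higher in cluster 13 and 176 as higher in cluster 12. The shares of 7.78% and 4.63% are over genes with 10 UMIs in the higher cluster alone. Immediate-early genes, transcribed within minutes of a stimulus, took 204 and 186 UMIs per 10,000 in cluster 12 and 213 and 223 in cluster 13. Of the 12, 11 reached 10 UMIs and Hspa1a alone was listed, as higher in cluster 12. Of 10 cell cycle genes only 1 reached 10 UMIs, so that the rule could hardly list any, and their summed level lay between 0.719 and 1.08.

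Hedgehog genes were examined because the study dealt with Indian hedgehog from choroidal endothelial cells. Dhh, desert hedgehog, the ligand that Schwann cells are known to send to the cells around the nerve, was at 1.05 (0.715 to 1.48) and 1.28 (0.894 to 1.79) in cluster 12 and at 2.14 (1.36 to 3.21) and 2.84 (1.97 to 3.97) in cluster 13, a ratio of 2.05 (1.14 to 3.61) and 2.21 (1.34 to 3.65). The Schwann cells held 63.2% (52.2 to 73.3) and 67.0% (57 to 75.9) of all Dhh UMIs, and endothelial cluster 4 was next at 0.397 and 0.484. Ptch1, the receptor and a target of the pathway, had 20 and 13 UMIs in cluster 12 and 1 and 1 in cluster 13. Gli1 and Gli2, the factors through which the signal acts, had no UMI in either cluster, whereas Gli1 reached 0.364 (cluster 8) and 0.357 (cluster 7) where it was highest. No gene of the hedgehog list was listed by either rule, and 4 reached 10 UMIs.

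**Figure D3:**
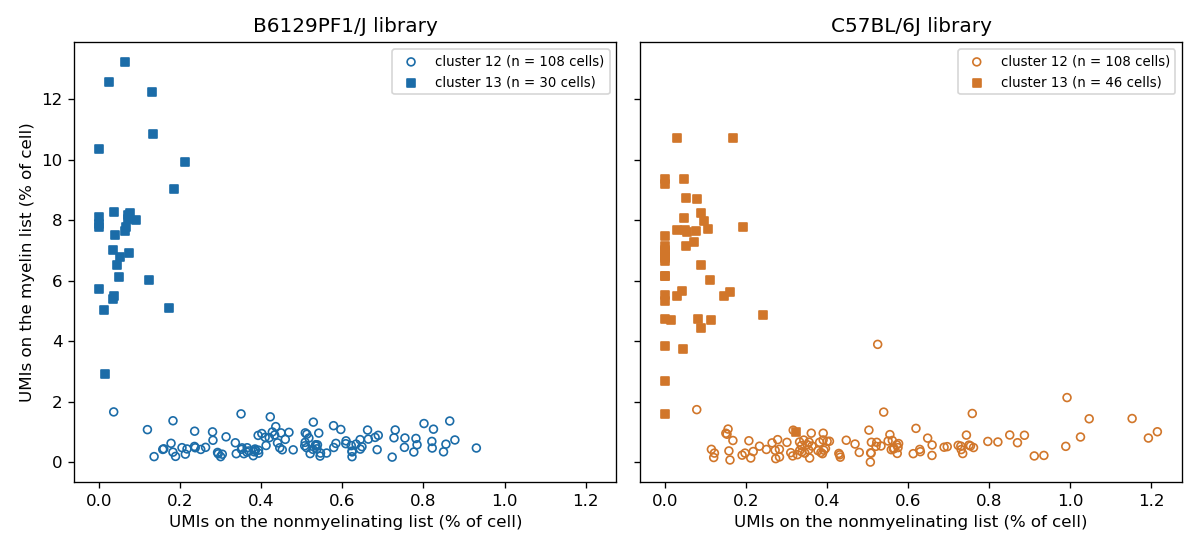
Each point is 1 Schwann cell, with the share of its UMIs on the nonmyelinating list (horizontal) and on the myelin list (vertical), in percent, in the 2 libraries. Cluster 13 lies high on the left and cluster 12 low and to the right, with 1 cluster 12 cell of the C57BL/6J library at 3.89% on the vertical axis.

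Cells within a cluster differed in how much myelin transcript they held. In the B6129PF1/J library the myelin list took a median of 0.542% of the UMIs of a cluster 12 cell (0.164 to 1.66) and 7.79% of those of a cluster 13 cell (2.91 to 13.2), and the clusters did not overlap. In the C57BL/6J library the medians were 0.529% (0 to 3.89) and 6.79% (0.998 to 10.7), and 12 cluster 12 cells lay at or above the lowest cell of cluster 13. The plot of cells by both lists shows 1 cluster 12 cell at 3.89% and 5 cluster 13 cells at or below it in the C57BL/6J library. RPE cells had a median of 0.0182% and 0.0110% on the same list. Thinning every cell to 1700 UMIs gave medians of 0.529% and 0.529% in cluster 12 and 7.47% and 6.71% in cluster 13.

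Markers of other cell types were low when summed over a cluster, but 163 of the 292 Schwann cells held 3 or more UMIs of 1 of 6 such lists. The RPE list alone had 3 or more UMIs in 41 and 28 of 108 cells of cluster 12. In cluster 13 it did so in 22 of 30 and 14 of 46 cells. The hematopoietic list of 8 genes had 3 and 1 UMIs in cluster 12 and 3 and 11 in cluster 13, and Ptprc and Cd68 were at 0 in both. Of the 10 oligodendrocyte genes 4 had a row, with 16 and 10 UMIs in cluster 12 and 11 and 4 in cluster 13. Sox8, a relative of Sox10, gave 15 and 8 and 9 and 4 of these, Ermn and Mobp gave the rest, and Olig1 was at 0. The RPE list was at 9.25 and 26.8 in cluster 12 and at 10.4 and 6.84 in cluster 13, against 2333 and 2175 in RPE cells, and in the C57BL/6J library 508 of the 731 RPE UMIs of cluster 12 lay in 1 cell. The endothelial list was at 9.35 and 2.82 in cluster 12 and at 12.1 and 4.34 in cluster 13, with 107 of the 130 UMIs of B6129PF1/J cluster 13 in 1 cell. The stromal list was at 9.74 and 15.2 in cluster 12 and at 9.49 and 7.85 in cluster 13, against 249 and 284 in cluster 7, and its Col1a1 was listed as higher in cluster 12. Neuron, photoreceptor and perineurial lists had 0, 0 and 3 members that reached 10 UMIs, and their summed levels lay at 0.0654 to 2.55. Aqp1, a water channel listed as higher in cluster 13, had 25 of its 31 UMIs there in 1 cell of the B6129PF1/J library and 10 of 28 in 1 cell of the other. Tagln, a smooth muscle gene and likewise listed, had 14 and 25 UMIs in 10 and 15 cells. Without the 163 cells that held 3 or more UMIs of any of the 6 lists of other types, 17 of the 115 genes higher in cluster 13 and 18 of the 176 higher in cluster 12 were still listed, with 3 cluster 13 cells left in the B6129PF1/J library. Without the 32 cells that held 10 or more, a limit added after the data were seen, 104 and 149 were. No doublets were removed, and 1 cell in the 2 clusters carried both Xist and Ddx3y. Since Ddx3y was seen in only 6 and 6 cells of cluster 12 and 4 and 4 of cluster 13, most doublets of a male and a female cell would go unseen. The share of doublets was not estimated here. The libraries shared 22 cell barcodes, 4 of which belonged to a Schwann cell in one or the other.

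**Figure D4:**
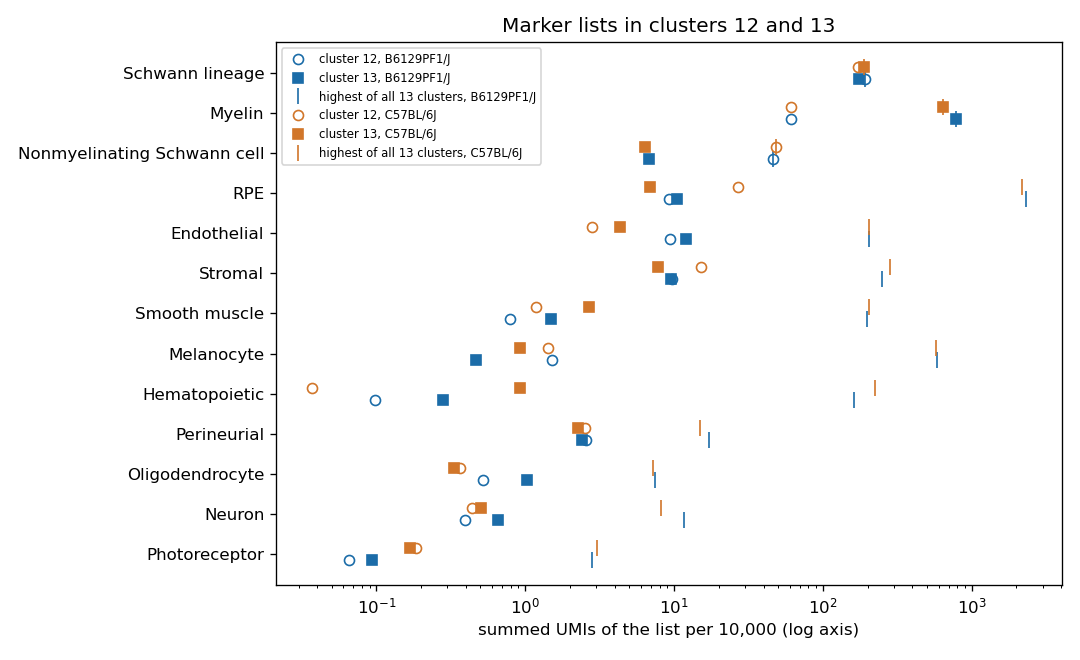
Summed level of each marker list (UMIs per 10,000, log axis) in clusters 12 (circles) and 13 (squares) of the 2 libraries, with a vertical tick at the highest of all 13 clusters. The Schwann lineage, myelin and nonmyelinating lists reach their highest level in clusters 12 or 13, and the other lists drawn lie left of their tick.

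Between the strains, 68 of 4215 genes (1.61%) were at least 3 times as high in cluster 12 of the C57BL/6J library and 121 of 4665 (2.59%) in that of the B6129PF1/J library. The leading genes higher in C57BL/6J were Wfdc18, Spp1, Cxcl10, Rlbp1 and Trf. Of these, Wfdc18 had 46 of its 53 UMIs in 1 cell, Spp1 62 of 106, and the RPE genes Rlbp1 and Trf 12 of 19 and 47 of 71. Cxcl10, a chemokine induced by interferon, had 41 UMIs against 6, with at most 10 in 1 cell. Higher in B6129PF1/J were Gm10116, Gm10709, Gm26825, Gm8797 and Cd24a. Of these, Cd24a had 14 of its 40 UMIs in 1 cell, and over clusters 1 to 11 it lay the other way, at 6.11 in B6129PF1/J and 7.08 in C57BL/6J. Gm10116 was at 9.87 against 0.293 in cluster 12 and at 18.0 against 0.472 over clusters 1 to 11, so that it differed in the other cells too. In cluster 13, 58 of 1955 genes (2.97%) were at least 3 times as high in C57BL/6J and 41 of 1727 (2.37%) in B6129PF1/J. Fabp4 and Ifit1 were among the first, with all of their 27 and 18 UMIs in 1 cell each, and Gm10116, at 9.03 against 0.417, led the second.

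Average FPKM of whole RPE/choroid were also deposited for mice with Ihh deleted in endothelial cells (IhhiΔEC/ΔiEC) and for mice labelled wild type, both on C57BL/6J at 6 months of age and 12 weeks after tamoxifen, with 3 samples a genotype but only the authors' mean of each. By the paper, the controls were littermates with intact Ihh that carried the Cdh5-CreERT2 transgene and also received tamoxifen. In whole tissue, fewer cells of a type and less RNA per cell cannot be told apart. Of 28 genes of the Schwann lineage and myelin lists at 1 FPKM or more, 18 were lower in the deletion, where 6764 of all 11400 genes at that level were lower, and none differed by 2 times, where 0.719% of 11400 genes were at most 0.5 times and 1.04% at least 2 times the wild type. The 15 Schwann lineage genes had a median log2 ratio of -0.37, with 14 of them lower, and the 13 myelin genes of 0.08, with 4 lower, beside -0.04 for all genes. Cdh19, the lineage gene with the largest fall, was at 5.89 FPKM in wild type and 3.11 in the deletion, S100b at 153 and 106, and Mbp at 14.2 and 17.6. Other lineage genes differed less, with Egfl8 at 2.47 and 1.97, Gpr37l1 at 1.65 and 1.27, and Gfra3 at 1.59 and 1.46. Fabp7 was at 1.09 and 1.08, and Cadm4, the lineage gene that was not lower, at 17.1 and 18.2. The 6 melanocyte genes measured had a median log2 ratio of -0.56, and melanocytes share S100b and Cdh19 with Schwann cells. In the scRNAseq, cluster 12 held 1.78% and 1.79% of the UMIs and cluster 13 held 0.626% and 0.787%, the rest lying in other cell types. The part of melanocytes and of other cell types in these tissue values was not tested. Sox10 was not among the 28 genes.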

How the data were processed

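Droplet libraries of 2 strains were read as raw UMI counts, which the authors had produced with Cell Ranger against mm10, filtered, clustered in Seurat 2.1 and deposited. The mitochondrial fraction of each cell was taken as deposited. FPKM of whole tissue came from Cufflinks 2.0.2, per the submitters' processing notes, and were deposited as the authors' averages. Their fold change and adjusted p-value columns were not used. No cell, doublet or gene was removed here. Cell numbers are those of the deposited annotation, which is not identical to the cell numbers tabulated in the study.

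The libraries held 17168578 (B6129PF1/J) and 15230413 (C57BL/6J) UMIs over 16426 genes. UMIs were summed per cluster and library and divided by the total of that cluster in that library, in Python 3.11.15 with numpy 2.4.6, pandas 2.3.3 and scipy 1.17.1, and plotted with matplotlib 3.10.9. Intervals are exact Poisson for levels, exact conditional binomial for ratios and Clopper-Pearson for shares. A level under 3 UMIs was set to 3 UMIs in the listing rules. The listing was also run on simulated data. The settings and outcome of that run are not reported here, and whether the simulated counts resembled these cells was not tested. The simulation is thus no support for the lists. No test between groups was made. The genes named come from the 15 leading in each direction, the shared genes, members of 24 gene lists that a rule listed and up to 4 abundant others of each list. Some of these genes enter the counts and list sums but are not reported here by name. Zero or low genes such as Gli1, Nfasc, Gfap, Mobp and Fabp4 were singled out after their values were seen. The members and lists were chosen with earlier results of these data known. Alternatives were other folds, minimums, means over cells, thinned cells, single libraries and leaving out cells with markers of other types. Promoters came from RefSeq, GRCm38.p6, the assembly mm10 is based on.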

Additional observations from a re-analysis of the deposited data

How the results depend on the processing

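No paired analysis was possible because the results come from no test, and ratios of cluster 13 to 12 were taken within each library. The 15 leading genes of each cluster kept their direction under all 180 alternative values. They had been chosen for the largest ratios in the same direction in both libraries. The single-library values thus could not reverse, and the kept direction is no support. Of the 180 values, 59 moved by more than 1.5 times. The cause was not tested where none is given. With folds of 2 and 10, the shared genes numbered 34 and 5, those higher in cluster 13 180 and 34, and those higher in cluster 12 389 and 21. The shared genes numbered 6 with every cell thinned to 1700 UMIs, 35 with clusters 12 and 13 summed together and, in alternatives added after the data were seen, 24 without cluster 10 and 27 with the floor over clusters 1 to 11 together. With a minimum of 30 UMIs, 57 genes were higher in cluster 13. The B6129PF1/J library alone gave 177 genes higher in cluster 13 and 305 higher in cluster 12, and the C57BL/6J library alone 196 and 309. Thinned cells gave 103 genes higher in cluster 12, and 78 higher in B6129PF1/J between the strains.

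Without cells holding 3 or more UMIs of 1 of the 6 lists, 22 genes passed for cluster 13 and 20 for cluster 12, from 47 and 55 cells of cluster 12 and 3 and 24 of cluster 13, since this alternative leaves few cells by construction. Without Mbp, the median myelin share was 0.387% and 0.368% in cluster 12 and 6.12% and 5.21% in cluster 13, and thinning gave 7.47% in cluster 13 of B6129PF1/J. Cluster 13 of B6129PF1/J held 30 cells and 107464 UMIs.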
